A study of Homo sapiens with 14 samples.

Results

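The 45 genes described here encode proteins of mitosis and of the mitotic spindle: kinases and cyclins, the spindle checkpoint, kinetochores, motors and the machinery of cytokinesis. They were chosen by name for their roles, with earlier results of these data known, and matched by symbol in the deposited tables. All 45 were found among the 55075 genes listed. Their RNA was sequenced in CEM and CUTLL1, 2 human lines of T cell acute lymphoblastic leukemia (T-ALL). In each line, cells growing in suspension in RPMI were infected with a retrovirus carrying a short hairpin, which lowers a chosen mRNA. One group received a hairpin against JMJD3 (gene KDM6B), another a hairpin against UTX (gene KDM6A), and the control group a hairpin against Renilla luciferase, which human cells do not encode. The groups are called shJMJD3, shUTX and shRenilla. CEM had 2 samples of each group. CUTLL1 had 3 shJMJD3, 2 shUTX and 3 shRenilla samples. The sources used here do not give the number of hairpin sequences per target, the time between infection and harvest or any selection of infected cells. JMJD3 and UTX are both demethylases of H3K27, the histone residue that Polycomb marks, and the series contrasts them in this leukemia.

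Most genes of this kind are transcribed in a wave from S phase to mitosis and are low in resting cells. Their promoters are held down early in the cycle by the DREAM complex and are driven later by B-MYB with MuvB and by FOXM1. MuvB is recruited through a short element, the cell cycle genes homology region (CHR), and NF-Y binds CCAAT boxes in the same promoters. At the protein level, CDK1 with its cyclins starts mitosis, the checkpoint holds anaphase until kinetochores are attached, and the anaphase-promoting complex then releases separase. In leukemia lines, which cycle continuously, the summed RNA of such genes rises with the share of cells in late cycle.

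The promoters of the members are shown first, because many of them hold 1 or both of these elements. RefSeq promoters (build GRCh38.p14) were matched for 37 members, and the 250 bases before the start were searched on both strands. AURKA, BIRC5, BUB3, FOXM1, PBK, TPX2, TTK and UBE2C were not matched. The CCAAT box was searched as CCAAT and its reverse complement ATTGG, and the CHR as TTTGAA on either strand (TTCAAA when read from the other one) or as the palindrome TTCGAA. Of the matched members 30 (81.1%) held a CCAAT box, against 33.0% of 27305 promoters in the table. A CHR was present in 21 members (56.8%), against 14.6% of all promoters. Both were present in 19 members (51.4%), against 5.24% of all promoters. At least 2 CCAAT boxes were present in 20 members (54.1%), against 2739 of all 27305 promoters. Boxes that overlap, such as CCAATTGG in PTTG1, were counted separately. Below are the 140 bases before the start for 8 members that hold both elements and cover 8 roles, and for PTTG1, which holds CCAAT boxes alone and had the highest shJMJD3 over shUTX ratio in CEM. Capitals mark the letters of either element. Each stretch ends at the last base before the start.
PLK1, chr16:23678749-23678888, plus strand: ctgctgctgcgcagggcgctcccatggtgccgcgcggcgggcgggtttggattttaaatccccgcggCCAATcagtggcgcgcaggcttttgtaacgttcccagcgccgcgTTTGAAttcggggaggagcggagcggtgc
CCNB2, chr15:59105006-59105145, plus strand: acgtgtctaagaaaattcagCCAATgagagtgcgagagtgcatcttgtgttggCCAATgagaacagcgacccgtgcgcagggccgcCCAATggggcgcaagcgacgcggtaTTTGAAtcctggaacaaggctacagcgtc
CDC20, chr1:43358841-43358980, plus strand: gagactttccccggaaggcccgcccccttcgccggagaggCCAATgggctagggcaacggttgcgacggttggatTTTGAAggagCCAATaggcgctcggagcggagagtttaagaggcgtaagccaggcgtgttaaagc
INCENP, chr11:62123871-62124010, plus strand: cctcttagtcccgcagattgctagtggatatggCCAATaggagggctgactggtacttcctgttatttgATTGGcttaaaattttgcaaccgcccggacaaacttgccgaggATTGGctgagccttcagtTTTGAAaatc
CENPA, chr2:26785916-26786055, plus strand: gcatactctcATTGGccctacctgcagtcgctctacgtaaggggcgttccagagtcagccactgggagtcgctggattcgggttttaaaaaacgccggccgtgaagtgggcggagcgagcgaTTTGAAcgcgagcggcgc
KIF23, chr15:69414209-69414348, plus strand: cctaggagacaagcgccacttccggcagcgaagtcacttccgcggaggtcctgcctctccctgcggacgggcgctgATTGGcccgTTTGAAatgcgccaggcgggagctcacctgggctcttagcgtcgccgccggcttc
DLGAP5, chr14:55191586-55191725, minus strand: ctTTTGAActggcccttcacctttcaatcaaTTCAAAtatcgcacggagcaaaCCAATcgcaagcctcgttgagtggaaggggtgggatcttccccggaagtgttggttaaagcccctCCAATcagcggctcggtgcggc
MKI67, chr10:128126424-128126563, minus strand: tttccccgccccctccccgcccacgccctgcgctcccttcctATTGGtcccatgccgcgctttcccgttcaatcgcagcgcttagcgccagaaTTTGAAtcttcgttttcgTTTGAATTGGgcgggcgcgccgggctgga
PTTG1, chr5:160421715-160421854, plus strand: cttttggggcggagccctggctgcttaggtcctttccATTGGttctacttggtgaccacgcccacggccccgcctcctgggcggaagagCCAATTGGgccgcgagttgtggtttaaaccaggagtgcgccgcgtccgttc
In CCNB2, PLK1, INCENP, CENPA and MKI67 a CHR lies close to the start, and 13 of the 21 members with a CHR had one within 40 bases of it. In CCNB2, CDC20 and INCENP several CCAAT boxes precede or surround it, and 26 of the 30 members with a CCAAT box had one within 120 bases. These distances were not counted over all promoters. A CHR and a CCAAT box share letters in 2 members, MKI67 and CDCA8, and each was counted as holding both elements. Both elements were less frequent in related lists, which were chosen by role, also with earlier results known. Of 47 matched promoters of other mitosis genes, 55.3% held a CCAAT box, 38.3% a CHR and 29.8% both. Of 21 matched DNA replication promoters, 66.7% held a CCAAT box, 9.52% a CHR and 9.52% both. Of 14 promoters of anaphase-promoting complex subunits, 35.7% held a CCAAT box, 14.3% a CHR and 0 both. These shares describe letters in a fixed window, and binding was not measured.

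The authors deposited 1 count per gene for each hairpin and line, so the replicates of a group are pooled in 1 column and their spread is not known. Levels below are counts per 1000000 of the column total (CPM). They are not corrected for transcript length, so a level is compared between columns and not between genes. Ratios are log2 ratios scaled by TMM, which sets the bulk of genes to no difference, and the 95% interval beside a ratio is exact binomial and holds nothing but counting error. No test was possible within a line. Column totals ran from 70280185 to 258014046 counts, and every member had at least 853 counts in every column. The CUTLL1 shRenilla column exists in 2 versions. The larger, with 258014046 counts, was paired by the authors with shJMJD3, and the smaller, with 144394369, with shUTX. The larger was at or above the smaller in every gene, and subtraction left a remainder of 113619677 counts. In CEM 93.0% to 94.1% of counts fell on protein-coding genes. In CUTLL1 this share was 66.9% with shJMJD3 and 79.0% with shUTX, against 72.2% in the larger and 81.8% in the smaller shRenilla column and 60.0% in the remainder.

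The targeted genes were lower under their own hairpin in both lines. KDM6B had 52.2 CPM with shJMJD3, against 206 with shRenilla in CEM (log2 ratio -1.67), and 10.9 against 18.8 in CUTLL1 (-0.63). KDM6A had 51.5 CPM with shUTX, against 136 with shRenilla in CEM (-1.37), and 19.3 against 43.0 in CUTLL1 (-1.12). The gene that was not targeted also differed from shRenilla in places. With shJMJD3, KDM6A had a log2 ratio of -0.34 in CEM and 0.014 in CUTLL1. With shUTX, KDM6B had -0.022 in CEM and 0.43 in CUTLL1. The 7 T cell markers summed in CEM to 2819 CPM with shJMJD3, 2739 with shUTX and, in the control, 2837. In CUTLL1 they summed to 2323 CPM with shJMJD3 and 2964 with shUTX, against 2652 in the larger and 3238 in the smaller shRenilla column. The 5 B cell markers summed to 47.6 CPM with shJMJD3, 73.6 with shUTX and 83.3 with shRenilla in CEM, most of it CD79A, with MS4A1 at 0 in every column and PAX5 at 0.106 CPM or less. The 5 myeloid markers summed to 6.46 CPM with shJMJD3, 0.649 with shUTX and 0.355 with shRenilla in CEM, nearly all of it ITGAM (6.33 CPM with shJMJD3 and 0.125 with shRenilla). Erythroid markers were at 0.067 CPM or less and fibroblast markers at 1.32 CPM or less in CEM. In CUTLL1 B cell, myeloid and erythroid markers each summed to 4.14 CPM or less and fibroblast markers to 9.69 or less. Their part in the ratios below was not tested.

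In CEM cells the whole mitotic set was higher with shJMJD3 than with shRenilla. All 45 members were at least 1.5-fold higher, a step that 22.4% of 16998 genes with at least 50 counts in either column made upward and 24.0% downward. At least 2-fold higher were 43 members, against 11.9% of all genes. The median log2 ratio of the members was 1.89, with a range from 0.67 for BUB3 to 2.77 for DLGAP5, and the median over all genes was -0.015. Scaled to column totals every ratio here is 0.31 lower, which leaves 44 members at least 1.5-fold and 40 at least 2-fold higher, with BUB3 at 0.36. The members together took 1.43% of all counts with shJMJD3, 0.518% with shUTX and 0.473% with shRenilla. All 45 had their highest CPM of the 3 CEM columns under shJMJD3, a count that was not made over all genes. From bulk RNA, more cells in late cycle and more of these mRNAs per cell cannot be told apart.

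**Figure D1:**
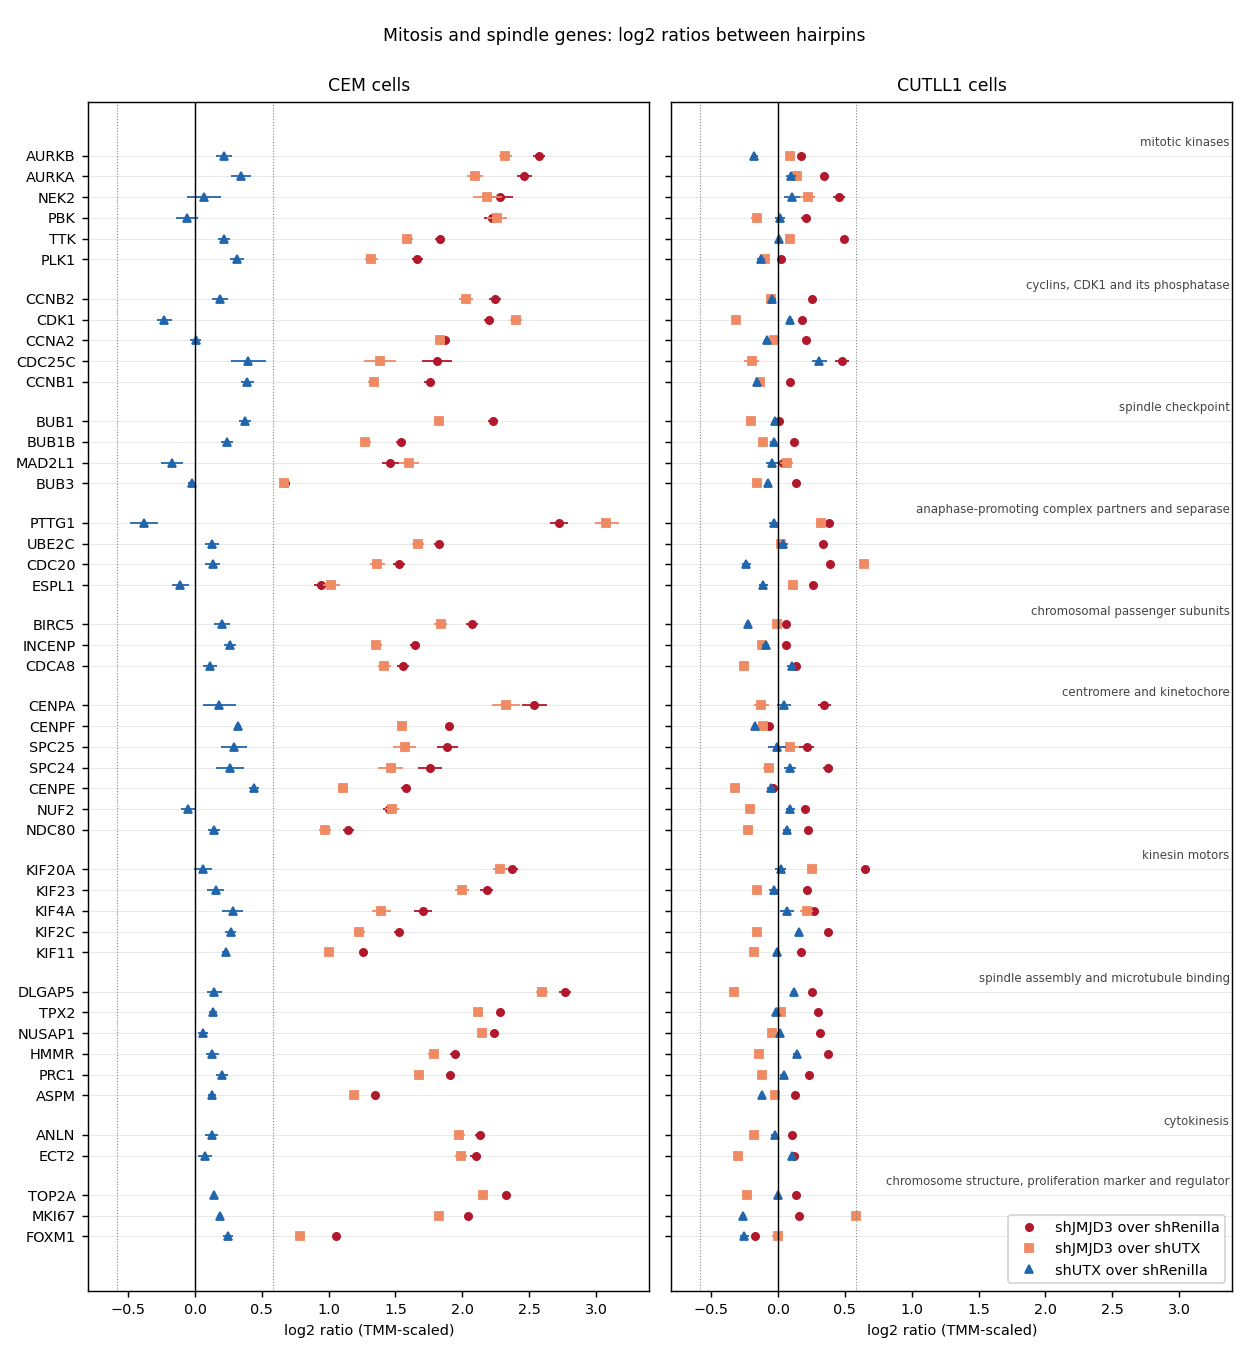
TMM-scaled log2 ratios of the 45 members in CEM (left) and CUTLL1 (right), ordered by role and, within a role, by the CEM shJMJD3 over shRenilla ratio. Points are ratios between pooled columns, bars are 95% counting intervals, and dotted lines mark 1.5-fold. In CEM both sets of ratios with shJMJD3 on top lie to the right of the 1.5-fold line for all 45 members and shUTX over shRenilla lies between the dotted lines, while in CUTLL1 all ratios lie between the dotted lines except KIF20A and CDC20.

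Among the mitotic kinases the CEM median was 2.25, and all 6 were at least 2-fold higher with shJMJD3. AURKB, the kinase of the chromosomal passenger complex that corrects faulty attachments, had 233 CPM with shJMJD3, against 55.3 with shUTX and 48.7 with shRenilla. Its log2 ratio of shJMJD3 over shRenilla was 2.57 (95% interval 2.53 to 2.62), the highest of the kinases and 5.94-fold on the linear scale. AURKA, which acts at the spindle poles, had 136 CPM with shJMJD3, against 37.9 with shUTX and 30.6 with shRenilla (2.46). In both Aurora kinases the shUTX level stood just above the control and far below shJMJD3. PLK1, which drives centrosome maturation and mitotic entry, had the lowest ratio of the role at 1.66 (95% interval 1.62 to 1.71), with 169 CPM with shJMJD3, against 80.1 with shUTX and 66.1 with shRenilla. TTK, also called MPS1, the kinase that starts checkpoint signalling at kinetochores, had 237 CPM with shJMJD3, against 93.4 with shUTX and 82.5 with shRenilla (1.83). NEK2, which splits the centrosomes, stood at 2.28, and PBK, a kinase active in mitotic cells, at 2.23.

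Cyclins, CDK1 and its phosphatase had a median of 1.87. CCNB2, a B-type cyclin that activates CDK1, had 205 CPM with shJMJD3, against 59.6 with shUTX and 53.7 with shRenilla, a ratio of 2.24 (95% interval 2.20 to 2.29). CDK1, the kinase that triggers mitosis, had 280.5 CPM with shJMJD3, against 62.9 with shUTX and 75.5 with shRenilla (2.20). CCNB1, the main mitotic cyclin, had the lowest ratio of the role, 1.76 (95% interval 1.72 to 1.80), with 195 CPM with shJMJD3, against 91.8 with shUTX and 71.8 with shRenilla. The control levels of CDK1 and CCNB1 were on opposite sides of their shUTX levels, and shJMJD3 was more than 2-fold above both columns for each gene. CCNA2, the cyclin of S phase and mitotic entry, stood at 1.87. CDC25C, the phosphatase that activates CDK1, had the fewest counts of any member with shJMJD3 and with shRenilla in CEM, at 26.9 CPM with shJMJD3, 12.2 with shUTX and 9.50 with shRenilla. Its interval was the widest, 1.81 (95% interval 1.70 to 1.93).

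The 4 spindle checkpoint genes had a median of 1.501 and lay far apart. BUB1, a kinase that recruits the checkpoint to kinetochores, had 296 CPM with shJMJD3, against 99.0 with shUTX and 78.4 with shRenilla, a ratio of 2.23 (95% interval 2.19 to 2.27). BUB3, the WD40 protein that binds BUB1 and BUB1B, had 288 CPM with shJMJD3, against 215 with shUTX and 224 with shRenilla, a ratio of 0.67 (95% interval 0.65 to 0.70). BUB3 was the lowest of all 45 members, 1.59-fold on the linear scale, and its shUTX and control levels were nearly equal. BUB1B (BUBR1) and MAD2L1, both parts of the inhibitor that the checkpoint builds against CDC20, stood at 1.54 and 1.46. MAD2L1 had 71.6 CPM with shJMJD3, against 27.9 with shUTX and 32.2 with shRenilla.

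The partners of the anaphase-promoting complex and separase had a median of 1.68 and covered almost the full range of the set. PTTG1, securin, which holds separase inactive until anaphase, had 115 CPM with shJMJD3, against 16.1 with shUTX and 21.5 with shRenilla. Its ratio was 2.73 (95% interval 2.66 to 2.79), or 6.61-fold, and unlike most members its shUTX level lay below the control. ESPL1, separase itself, had 85.9 CPM with shJMJD3, against 50.2 with shUTX and 55.5 with shRenilla, a ratio of only 0.94 (95% interval 0.89 to 0.99). The inhibitor and the protease it binds thus differed in ratio, though both were higher with shJMJD3 than in either other column. CDC20, the activator of the complex in mitosis, stood at 1.53, and UBE2C, the ubiquitin-conjugating enzyme that works with it, at 1.83.

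The 3 chromosomal passenger subunits had a median of 1.65. BIRC5, survivin, which brings the complex to the centromere, had 183 CPM with shJMJD3, against 60.5 with shUTX and 53.9 with shRenilla, a ratio of 2.07 (95% interval 2.03 to 2.12). CDCA8, borealin, had 159 CPM with shJMJD3, against 70.7 with shUTX and 67.1 with shRenilla, a ratio of 1.56 (95% interval 1.51 to 1.60). INCENP, the scaffold, lay between at 1.65. AURKB, the kinase of the same complex, stood above all 3.

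The 7 centromere and kinetochore genes had a median of 1.76, and all were at least 2-fold higher. CENPA, the histone H3 variant that marks centromeres, had 56.4 CPM with shJMJD3, against 13.3 with shUTX and 12.0 with shRenilla, a ratio of 2.54 (95% interval 2.45 to 2.63). NDC80, the microtubule-binding subunit that gives the NDC80 complex its name, had 158 CPM with shJMJD3, against 95.5 with shUTX and 88.7 with shRenilla, the lowest ratio of the role at 1.15 (95% interval 1.11 to 1.19). The other subunits of the NDC80 complex stood at 1.45 for NUF2, 1.76 for SPC24 and 1.89 for SPC25, so the 4 subunits spanned 1.15 to 1.89 with intervals that did not all overlap. CENPF, a large protein of the outer kinetochore, had 835 CPM with shJMJD3, against 338 with shUTX and 277 with shRenilla (1.90). CENPE, a kinesin that carries chromosomes to the spindle equator, had 277 CPM with shJMJD3, against 152 with shUTX and 115 with shRenilla (1.58), with shUTX clearly between the other columns.

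Kinesin motors had a median of 1.70. KIF20A, a motor of the central spindle, had 178 CPM with shJMJD3, against 43.3 with shUTX and 42.7 with shRenilla, a ratio of 2.37 (95% interval 2.32 to 2.42). KIF11, the Eg5 motor that pushes spindle poles apart, had 433 CPM with shJMJD3, against 256 with shUTX and 224 with shRenilla, a ratio of 1.26 (95% interval 1.23 to 1.28). The motors of the midzone and of cytokinesis were at 2.18 for KIF23 and 1.70 for KIF4A, and KIF2C, which depolymerises microtubules at centromeres, at 1.53.

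Spindle assembly and microtubule-binding proteins had a median of 2.09. DLGAP5 (HURP), which stabilises kinetochore fibres, had 307 CPM with shJMJD3, against 60.1 with shUTX and 55.8 with shRenilla. At 2.77 (95% interval 2.73 to 2.81), or 6.81-fold, its ratio was the highest of the 45. ASPM, a protein of the spindle poles, had 441 CPM with shJMJD3, against 229 with shUTX and 215 with shRenilla, the lowest of the role at 1.34 (95% interval 1.32 to 1.37). TPX2, which activates AURKA on the spindle, stood at 2.28, NUSAP1 at 2.24, HMMR at 1.94 and PRC1, which bundles the central spindle, at 1.91.

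Both cytokinesis genes lay close together. ANLN, anillin of the contractile ring, had 249 CPM with shJMJD3, against 74.9 with shUTX and 70.5 with shRenilla (2.13). ECT2, the exchange factor that activates RhoA at the division plane, had 248 CPM with shJMJD3, against 73.7 with shUTX and 71.7 with shRenilla (2.10). Of the last role, TOP2A, the topoisomerase that untangles sister chromatids, had 2476 CPM with shJMJD3, against 658 with shUTX and 612 with shRenilla, a ratio of 2.33 (95% interval 2.31 to 2.34). MKI67, the Ki-67 proliferation marker that coats mitotic chromosomes, had 1806 CPM with shJMJD3, against 604 with shUTX and 543 with shRenilla, a ratio of 2.04 (95% interval 2.03 to 2.06). FOXM1, the transcription factor that drives many of these genes, had 242 CPM with shJMJD3, against 167 with shUTX and 144 with shRenilla, a ratio of 1.06 (95% interval 1.03 to 1.09). FOXM1 was among the 4 members with the lowest ratios, after BUB3 and ESPL1 and before NDC80.

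Set beside the promoters shown above, the CEM medians were 1.91 for the 19 members with both elements, 2.23 for the 11 with a CCAAT box alone, 1.84 for the 2 with a CHR alone (ANLN and BUB1B) and 1.53 for the 5 with neither (CDC25C, CENPE, KIF2C, NDC80 and NUF2). The ranges overlapped, from 0.94 to 2.77 with both elements and from 1.15 to 1.81 with neither.

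**Figure D2:**
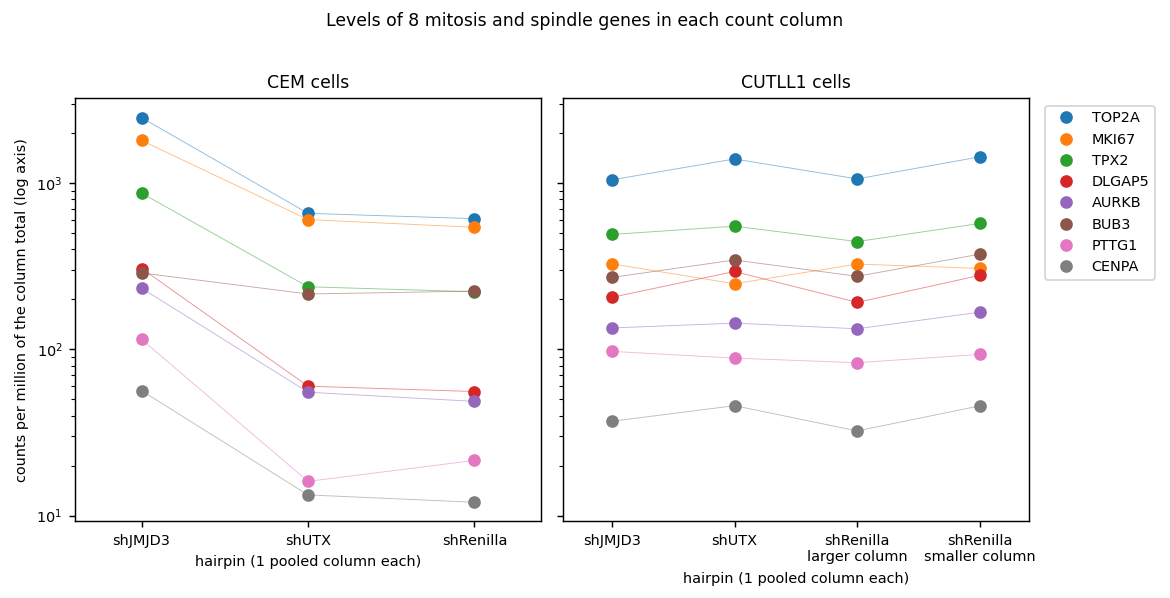
CPM (log axis) of 8 members in each pooled column of CEM (left) and CUTLL1 (right), with no error bars because replicates are pooled; thin lines join the values of 1 gene. In CEM the shJMJD3 column is the highest for all 8, with BUB3 nearest to level (288, 215 and 224 CPM), and in CUTLL1 the columns lie close together.

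Other lists of the cell cycle were set beside the members in CEM. Over all 16998 genes the share at least 1.5-fold higher with shJMJD3 than with shRenilla was 22.4%, and 24.0% were lower. Of 56 other mitosis genes, 50 were at least 1.5-fold higher with shJMJD3 than with shRenilla and 0 lower, with a median of 1.47. They ran from 0.21 for the kinetochore protein DSN1 to 2.67 for DEPDC1. Of 25 DNA replication genes, 8 were higher and 0 lower, with a median of 0.46, from -0.10 for GINS3 to 1.69 for RRM2, a subunit of ribonucleotide reductase. The 14 subunits of the anaphase-promoting complex, which CDC20 and UBE2C serve, had a median of 0.17 with 2 higher and 1 lower, from -1.09 for ANAPC2 to 1.04 for ANAPC11. The 9 cohesin genes, whose ring separase cuts, had a median of 0.51 with 3 higher and 1 lower, from -0.72 for STAG1 to 1.07 for STAG2. The 23 DREAM, MuvB, RB, E2F and NF-Y genes had a median of 0.19 with 6 higher and 2 lower, from -0.77 for RBL1 to 1.44 for E2F7. Of 5 measured CDK inhibitors, 4 were higher and 0 lower, with a median of 1.16, from 0.16 to 2.50 for CDKN3, a phosphatase of CDK1 and CDK2.

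**Figure D3:**
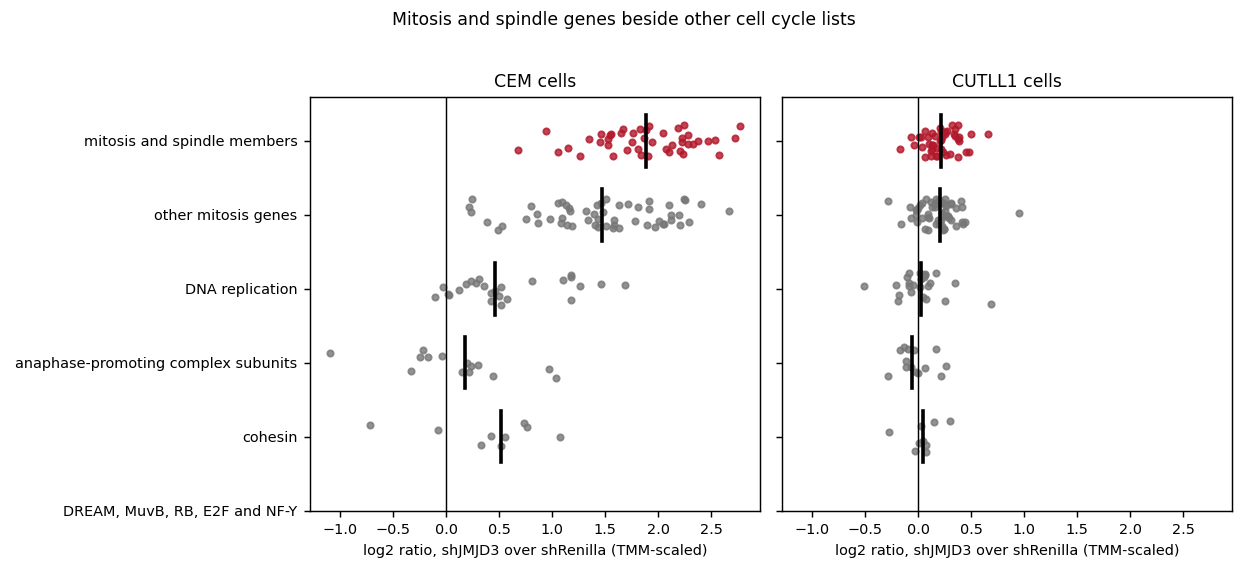
TMM-scaled log2 ratios of shJMJD3 over shRenilla for the 45 members (red) and 4 other lists (grey) in CEM (left) and CUTLL1 (right). The row labelled DREAM, MuvB, RB, E2F and NF-Y holds no points. Each point is a gene, black bars are medians, and points are spread vertically only to be seen. In CEM the medians are 1.89 for the members and 1.47 for other mitosis genes. They are 0.17 to 0.51 for DNA replication, anaphase-promoting complex and cohesin genes. In CUTLL1 the medians drawn lie between -0.056 and 0.21.

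Against shUTX the CEM members were again higher with shJMJD3. This comparison shares the shJMJD3 column with the one above and is no separate evidence for that column. All 45 were at least 1.5-fold higher, against 22.3% of 16229 genes, and 41 at least 2-fold, against 11.8%. With column totals these counts were 43 and 37. The median was 1.67, from 0.67 (95% interval 0.64 to 0.70) for BUB3 to 3.08 (95% interval 2.99 to 3.17) for PTTG1. After PTTG1 the highest were DLGAP5 at 2.60 and CDK1 at 2.40, and after BUB3 the lowest were FOXM1 at 0.78 and NDC80 at 0.97.

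With shUTX itself the CEM set stayed near the control. None of the 45 members was 1.5-fold higher or lower than with shRenilla, against 3.32% higher and 4.06% lower of 16791 genes. The median was 0.16, 38 members were above 0, and the counting interval lay above 0 for 35 and below it for 4. Of all 16791 genes 8413 were above 0, and intervals were not counted over all genes. CENPE (0.44 (95% interval 0.40 to 0.48)), CDC25C (0.40) and CCNB1 (0.39) had the highest ratios. PTTG1 (-0.38 (95% interval -0.49 to -0.28)), CDK1 (-0.23) and MAD2L1 (-0.17) had the lowest. PTTG1 and CDK1 thus had among the highest ratios with shJMJD3 over shUTX and the lowest with shUTX over shRenilla, which share the shUTX column. The other mitosis genes had a median of 0.10 with 0 past 1.5-fold.

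In CUTLL1 the members differed little between shJMJD3 and the larger shRenilla column. At least 1.5-fold higher was 1 member, KIF20A, and 0 were lower, against 8.56% higher and 7.11% lower of 19772 genes. The median was 0.21, from -0.17 (95% interval -0.20 to -0.14) for FOXM1 to 0.65 (95% interval 0.62 to 0.68) for KIF20A, and 42 members were above 0. Of all 19772 genes 9841 were above 0. Scaled to column totals every ratio here is 0.15 lower, which leaves 29 members above 0 and a median of 0.057. The members took 0.801% of counts with shJMJD3 and 0.962% with shUTX, against 0.783% in the larger and 1.01% in the smaller shRenilla column. By CPM 26 members were highest in the smaller shRenilla column, 13 with shUTX and 6 with shJMJD3. This count was not made over all genes. CPM also depend on what fills a column, and protein-coding genes took 66.9% of counts with shJMJD3 and 81.8% in the smaller column. On the TMM scale 26 members were higher with shJMJD3 than in the smaller column.

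KIF20A had 90.5 CPM with shJMJD3 and 86.1 with shUTX, against 64.0 in the larger and 87.4 in the smaller shRenilla column. By CPM its shJMJD3 level was the highest of the 4 columns, but only slightly above shUTX and the smaller control. On the TMM scale shJMJD3 stood at a log2 ratio of 0.43 over the smaller control and 0.26 over shUTX. TTK had 299 CPM with shJMJD3 and 319 with shUTX, against 236 in the larger and 326 in the smaller shRenilla column (shJMJD3 over the larger column 0.49). CDC25C had 33.6 CPM with shJMJD3 and 43.8 with shUTX, against 26.9 in the larger and 36.4 in the smaller shRenilla column (0.48). For TTK and CDC25C the smaller control was above shJMJD3 by CPM. On the TMM scale the order was the opposite, with shJMJD3 over the smaller control at 0.25 for TTK and 0.26 for CDC25C. CDC20 had 142 CPM with shJMJD3 and 103 with shUTX, against 121 in the larger and 125 in the smaller shRenilla column (0.39) and was highest with shJMJD3. PLK1 had 101 CPM with shJMJD3 and 124 with shUTX, against 111 in the larger and 139 in the smaller shRenilla column, a ratio of 0.023 (95% interval -0.0041 to 0.050) whose interval includes 0.

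In the other roles the same small differences were seen. DLGAP5, the highest member in CEM, had 206 CPM with shJMJD3 and 294 with shUTX, against 192 in the larger and 279 in the smaller shRenilla column (0.26). PTTG1 had 97.3 CPM with shJMJD3 and 88.6 with shUTX, against 83.2 in the larger and 93.3 in the smaller shRenilla column (0.38). AURKB had 135 CPM with shJMJD3 and 144 with shUTX, against 133 in the larger and 167 in the smaller shRenilla column (0.17). These 3 genes, each more than 5-fold higher with shJMJD3 than with shRenilla in CEM, all stayed within 1.5-fold in CUTLL1. BUB1 had 289 CPM with shJMJD3 and 377 with shUTX, against 319 in the larger and 394 in the smaller shRenilla column (0.0077). BUB3 had 271 CPM with shJMJD3 and 345 with shUTX, against 275 in the larger and 374 in the smaller shRenilla column (0.13). The wide gap of BUB1 over BUB3 seen in CEM was therefore absent from these CUTLL1 ratios, where BUB3 was the higher over the larger column. Over the smaller column BUB1 stood at -0.072 and BUB3 at -0.088.

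CENPA had 37.0 CPM with shJMJD3 and 45.9 with shUTX, against 32.3 in the larger and 45.8 in the smaller shRenilla column (0.35). CENPF had 322 CPM with shJMJD3 and 396 with shUTX, against 376 in the larger and 459 in the smaller shRenilla column (-0.069). CENPF, CENPE (-0.037) and FOXM1 were the 3 members with an interval below 0 against the larger control. HMMR had 156 CPM with shJMJD3 and 196 with shUTX, against 134 in the larger and 183 in the smaller shRenilla column (0.37), and SPC24 had 64.3 CPM with shJMJD3 and 76.8 with shUTX, against 55.2 in the larger and 74.3 in the smaller shRenilla column (0.37). TOP2A had 1048 CPM with shJMJD3 and 1397 with shUTX, against 1061 in the larger and 1439 in the smaller shRenilla column (0.14). MKI67 had 327 CPM with shJMJD3 and 248 with shUTX, against 326 in the larger and 307 in the smaller shRenilla column (0.16). MKI67 and CDC20 were the members in which shUTX was the lowest of these 4 columns by a clear margin. FOXM1 had 80.6 CPM with shJMJD3 and 92.0 with shUTX, against 101 in the larger and 113 in the smaller shRenilla column, with shJMJD3 the lowest column.

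Role medians in CUTLL1 ran from 0.059 for the passenger subunits to 0.36 for the anaphase-promoting complex partners and separase, and those of 4 roles fall below 0 when scaled to column totals. Other mitosis genes had a median of 0.20 with 1 of 56 at least 1.5-fold higher, against 8.56% of all genes. That gene was CKS1B, named after its value was seen. DNA replication genes had a median of 0.025, anaphase-promoting complex subunits -0.056, cohesin 0.047, and DREAM, MuvB, RB, E2F and NF-Y genes 0.015. The 6 measured CDK inhibitors had a median of 0.23.

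The sources used here do not give which libraries each CUTLL1 shRenilla column pools or why they differ, so the remainder is a difference of counts and not a known control sample. The remainder and the smaller column differed more from each other than most members differed between hairpins. In the remainder over the smaller column, 1 member was at least 1.5-fold higher and 20 were lower, against 22.5% higher and 17.3% lower of 18546 genes. The median was -0.53, from -1.22 (95% interval -1.26 to -1.19) for DLGAP5 to 0.74 (95% interval 0.73 to 0.76) for MKI67. DLGAP5 had 81.1 CPM in the remainder and 279 in the smaller column, and MKI67 had 349.7 and 307. In 40 of 45 members the difference between the remainder and the smaller column was larger in size than the ratio of shJMJD3 over shRenilla, and in 43 larger than that of shUTX over shRenilla. Such counts were not made over all genes, so whether they are particular to the members is not known. The CEM ratio of shJMJD3 over shRenilla exceeded that CUTLL1 difference in size in 44 members. The difference comes from another line, so it gives no measure of how far control columns of CEM would differ. The remainder and the smaller column also differed in their small noncoding RNA, which took 18.7% of counts in the remainder and 1.97% in the smaller column, against 11.7% with shJMJD3 and 2.58% with shUTX; its part in these ratios was not tested.

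Set against the smaller column alone, CUTLL1 shJMJD3 had a member median of 0.035, with 26 above 0 and 0 past 1.5-fold, against 19.3% higher and 4.7% lower of 18581 genes, from -0.23 for CENPE to 0.56 for CDC20. Set against the remainder, the median was 0.59, and 23 members lay at or above 1.5-fold and 0 below the same step downward, against 17.0% higher and 21.3% lower of 18553 genes, from -0.29 for MKI67 to 1.21 for KIF20A. With shJMJD3 24 members were above both the smaller column and the remainder and 1 was below both, FOXM1, and 0 were 1.5-fold above both. These counts, and that of members above 0, were not made over all genes. The direction and size of the CUTLL1 shJMJD3 values therefore depend on which control counts are used.

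**Figure D4:**
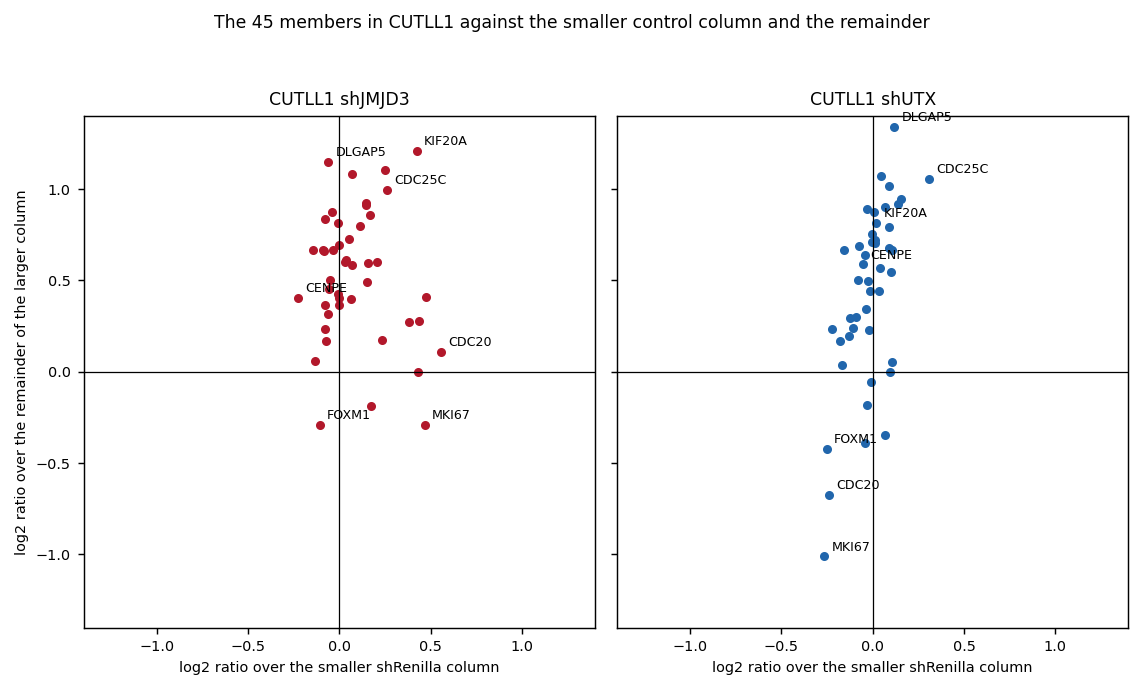
TMM-scaled log2 ratios of the 45 members in CUTLL1 over the smaller shRenilla column (horizontal) and over the remainder of the larger column (vertical), for shJMJD3 (left) and shUTX (right). Each point is a member between pooled columns, with no error bars drawn. Points run horizontally from -0.23 to 0.56 for shJMJD3 and from -0.27 to 0.31 for shUTX, and spread more widely vertically, from -0.29 to 1.21 for shJMJD3 and from -1.01 to 1.34 for shUTX.

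For CUTLL1 shUTX over the smaller shRenilla column, the pairing the authors used, 0 members were 1.5-fold higher or lower, against 3.49% higher and 2.25% lower of 16886 genes. The median was -0.0084 with 20 members above 0, as were 8186 of the 16886 genes. CDC25C was highest at 0.31 (95% interval 0.25 to 0.37), followed by KIF2C at 0.15 and HMMR at 0.14. MKI67 was lowest at -0.27 (95% interval -0.29 to -0.24), followed by FOXM1 at -0.25 and CDC20 at -0.24. Against the larger column the median was 0.28 with 1 member at least 1.5-fold higher, CDC25C, against 10.2% higher and 16.0% lower of 19583 genes. Against the remainder it was 0.54 with 21 higher and 2 lower, against 20.4% higher and 25.3% lower of 17985 genes, so the shUTX values in this line also moved with the control.

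Between shJMJD3 and shUTX in CUTLL1 no control enters except through the scaling. At least 1.5-fold higher was 1 member, CDC20, and 0 were lower, against 17.3% higher and 10.2% lower of 18287 genes. The median was -0.11, against -0.12 over all genes. CDC20 (0.65 (95% interval 0.61 to 0.68)), MKI67 (0.58 (95% interval 0.56 to 0.60)) and PTTG1 (0.32) were highest. DLGAP5 (-0.33 (95% interval -0.35 to -0.31)), CENPE (-0.32) and CDK1 (-0.32) were lowest. DLGAP5 and CDK1, lowest here, were with PTTG1 the highest of the same comparison in CEM.

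Placed side by side, the shJMJD3 over shRenilla ratio was larger in CEM than in CUTLL1 for all 45 members. The difference had a median of 1.67 log2 units and ran from 0.54 to 2.51. With 1 pooled value per hairpin and line this difference was not tested. A model with the 2 lines as replicates and the line as a block, fitted with edgeR to all genes, called 0 of 24003 genes for shJMJD3 over shRenilla at a Benjamini-Hochberg adjusted p under 0.05. At an unadjusted p under 0.05 were 936 genes, 6 of them members (CDC20, CDC25C, KIF20A, NEK2, SPC24 and TTK), and DESeq2 called 115 genes (0.479%), 0 of them members. The edgeR log2 ratio of the members had a median of 1.16 and ran from 0.42 to 1.77, with adjusted p from edgeR between 0.800 and 0.801. For KIF20A, the member highest in CUTLL1, the edgeR ratio was 1.63 (standard error 0.54, adjusted p = 0.800), positive in 2 of 2 lines.

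For shUTX over shRenilla edgeR called 0 of 23112 genes. An unadjusted p under 0.05 was reached by 39 genes, 0 of them members, and DESeq2 called 1 gene (0.00433%), not a member. The members' edgeR ratios ran from -0.16 to 0.35 with a median of 0.054. For shJMJD3 over shUTX edgeR called 0 of 24003 genes. An unadjusted p under 0.05 was reached by 1945 genes, and DESeq2 called 313 (1.3%), 0 of them members. Of the members CDC20 alone had an unadjusted p under 0.05, with an edgeR ratio of 1.04 (standard error 0.32, adjusted p = 0.587). The members' median was 0.91, and their adjusted p from edgeR ran from 0.587 to 0.744.

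The authors' deposited table gives a DEGseq p-value for each gene, which compares the reads of the libraries at hand and not the conditions. By the authors' deposited table, p was under 0.001 with a higher level in the shJMJD3 column of CEM for 45 of 45 members against shRenilla, where 54.4% of all genes passed in either direction. Against shUTX the authors' deposited table had the same count, 45, with 53.03% of all genes passing. For shUTX over shRenilla in CEM the authors' deposited table had 31 members higher and 5 lower, with 25.8% of all genes passing. In CUTLL1 the authors' deposited table had 22 higher and 12 lower for shJMJD3 over shRenilla, 4 higher and 37 lower for shJMJD3 over shUTX, and 7 higher and 25 lower for shUTX over shRenilla, with 40.2%, 51.5% and 27.4% of all genes passing. These directions rest on column totals and not on TMM.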

How the data were processed

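RNA was sequenced from 14 samples of 2 T-ALL lines. Per the labels' protocols, polyadenylated or ribosome-depleted RNA was made into strand-marking dUTP libraries and read as single reads. The sources used here do not tie either selection to a sample. Reads were handled with CASAVA and TopHat against hg19, per the submitters' processing notes, which give no versions. The sources used here do not name the counting program or its annotation, so reads of overlapping genes are uncertain. The authors deposited 6 tables with raw read counts for each pair of hairpins, 1 column per hairpin and line. The authors also deposited DEGseq p-values, per the file headers. No column of per-sample values was left unused.

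Genes with no count in either column were read as 0. Ratios were computed with edgeR 4.0.16 TMM factors and a prior count of 2. The background counts genes with at least 50 counts in either column. The fit across lines used edgeR's quasi-likelihood test (R 4.3.3) on deposited counts after its filter on low counts, with 2 residual degrees of freedom and Benjamini-Hochberg adjustment over all genes tested. Lines stand for replicates and the line is a block. Its p-values therefore weigh a hairpin difference against how far hairpin differences disagree between the lines. DESeq2 1.42.0 was an alternative. Scripts were tested on simulated data. Intervals and plots used scipy 1.17.1 and matplotlib 3.10.9 in Python 3.11.15. Other scalings, count minimums, prior counts and control columns were tried as alternatives.

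The members and lists were chosen with earlier results of these data known. Members written out in full are, for each role, those with the highest and lowest shJMJD3 over shRenilla ratio in each line, and the 3 highest and 3 lowest of each other comparison within a line. Others are named with their ratio or as part of a group. One gene is not reported here and is left out of the counts of its list.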

Additional observations from a re-analysis of the deposited data

Results flagged for a closer look

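The shUTX over shRenilla medians of the 45 members lay on opposite sides of 0 in the lines, 0.16 in CEM and -0.0084 in CUTLL1 on the log2 scale. In CUTLL1 the median over all genes was -0.0076. The CUTLL1 member median was above 0 with protein-coding totals (0.0011) and with the larger control (0.28). The difference between lines was not tested. The shJMJD3 over shUTX medians also lay on opposite sides of 0, 1.67 in CEM and -0.11 in CUTLL1, where the median over all genes was -0.12, and that difference was not tested either.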

How the results depend on the processing

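In CEM all 45 members stayed above 0 for shJMJD3 over shRenilla and over shUTX under every scaling, count minimum and prior count tried, but not all stayed past the fold steps. With column totals or protein-coding totals 44 were at least 1.5-fold and 40 at least 2-fold higher over shRenilla, and 43 and 37 over shUTX. Scaled to column totals, the member medians were 1.58 for shJMJD3 over shRenilla and 1.42 over shUTX in CEM, and in CUTLL1 0.057 over shRenilla (0 members 1.5-fold higher), -0.30 over shUTX (0 higher) and -0.050 for shUTX over shRenilla. Scaled to protein-coding totals they were 1.56 and 1.41 in CEM, and 0.17 and -0.061 (2 higher) in CUTLL1, with 0.0011 for CUTLL1 shUTX over shRenilla. With DESeq2 size factors the CUTLL1 shJMJD3 over shUTX median was -0.053 (2 higher). With the smaller control the CUTLL1 shJMJD3 over shRenilla median was 0.035 (0 higher), and with the remainder 0.59 (23 higher). For CUTLL1 shUTX the larger control gave 0.28 (1 higher) and the remainder 0.54 (21 higher, 2 lower). The CUTLL1 median of the remainder over the smaller control was -1.08 with column totals and -0.64 with protein-coding totals, scalings added after seeing the data. Across lines DESeq2 called 115, 1 and 313 genes for shJMJD3 over shRenilla, shUTX over shRenilla and shJMJD3 over shUTX, and edgeR called 6 with column totals and 65 with no filter on low counts for shJMJD3 over shUTX, 0 of them members in each case.

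Across lines some shUTX over shRenilla ratios of members changed sign. Column totals gave ANLN -0.0084, CENPF -0.014, KIF20A -0.0051, NUF2 -0.0061 and NUSAP1 -0.0084. The larger CUTLL1 control gave ASPM 0.15, AURKB 0.14, BIRC5 0.13, BUB3 0.16, CCNA2 0.16, CDK1 0.24, ESPL1 0.045, FOXM1 0.028 and PBK 0.22. The cause was not tested. No paired analysis was possible because the deposited columns pool the replicates and carry no replicate numbers, and for the same reason no replicate could be left out. The lowest count of a member in a deposited column was 853, for NEK2 in CEM with shUTX.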
